A study of Arabidopsis thaliana with 72 samples.

Results

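The genes described here are 35 nuclear genes that encode subunits of photosystem II and photosystem I and their small antenna proteins in Arabidopsis thaliana. They were chosen by locus identifier, with earlier results of these data known. All 35 were found among the 22122 loci of the expression table. They comprise 12 photosystem II subunits, 13 photosystem I subunits, the 6 photosystem I antenna genes LHCA1 to LHCA6, and 4 minor antenna genes of photosystem II (LHCB4.2, LHCB4.3, LHCB5 and LHCB6). LHCB4.1, the remaining LHCB4 gene, is not among them. The libraries are RNA-seq of either organ, shoot or root, of seedlings aged 14 days on agar plates, with 3 libraries in each of 24 groups. Citral, a monoterpene aldehyde given at 202 µM, was sampled at 5 times from 1 to 24 h, its 0.1% ethanol vehicle at those times and at 0 h, and untreated seedlings at 0 h. The treatment protocol names t-chalcone at 21 µM instead, and the agent given for each sample was followed here. All seedlings shared a photoperiod of 16 h, treatment began 7 h after lights on, and the 12 h samples therefore fell in the dark. Whole organs were measured, so fewer green cells and less RNA per green cell cannot be told apart, and nothing in the labels says that the 3 libraries of a group came from separate plates.

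Photosystem II splits water and passes electrons through the cytochrome complex and plastocyanin to photosystem I, which reduces ferredoxin. The reaction-centre proteins of both photosystems are made in the chloroplast from plastid genes, which were not analysed here. The subunits described here and the antenna proteins of the LHCA and LHCB families are encoded in the nucleus and imported. The LHCA proteins form the light-harvesting belt of photosystem I, and the minor antenna proteins join the photosystem II core to its major light-harvesting complex. In green tissue these nuclear genes are among the most strongly transcribed, they are known to respond to light and to the circadian clock, and roots hold few chloroplasts.

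Levels are given in CPM, the reads of a gene per M reads of its library. Changes are log2 values from limma's voom fit with library quality weights, in which the library sizes were further scaled by TMM, and a gene was called where the Benjamini-Hochberg adjusted p over all loci tested was below 0.05. Libraries held 0.181 to 20.6 M reads, with a median of 3.43 M for citral and 11.4 M for the controls. The 4 smallest, all ethanol controls with under 0.5 M reads, were replicate 1 of roots at 0 h, replicate 1 of roots at 3 h, replicate 2 of shoots at 12 h and replicate 3 of shoots at 24 h. They stayed in the tests, with library quality weights of 0.534, 0.617, 0.023 and 0.971 in that order, and were left out of means ± SD. Only the shoot library at 12 h thus had a very low quality weight. The organ labels held for these genes: in untreated seedlings all 35 were higher in shoots than in roots (35 of 35 called, against 36% of all loci called higher), and the summed level of the 35 was 97340 to 105300 CPM in untreated shoots, against 565 to 789.7 CPM in untreated roots. Of the 35, 13 overlap another annotated gene, 12 of them one on the other strand. Whether strand was used in counting is not given in the sources used here, so reads of such neighbours cannot be told apart.

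The stretch of 250 bases before the annotated gene start is printed for 4 members that carry the contrasts described in the next paragraphs: LHCB4.2, which fell most, its paralog LHCB4.3, which moved the other way, LHCA4, the member with the highest level, and LHCA5, whose level moved least. Sequences are from the RefSeq TAIR10.1 assembly and read 5′ to 3′ on the gene's strand. Capitals mark exact matches, on either strand, to 4 motifs known from light- and clock-regulated plant genes. The first is the G-box, spelled CACGTG. The second is the I-box, spelled GATAAG. The third is the CCAAT-like motif CCAATC. The last is the evening element, spelled AAAATATCT. No 2 matches overlap in these windows. LHCB4.2 (AT3G08940) is at chr3:2717557-2718923 on the plus strand and its window is chr3:2717307-2717556. LHCA4 (AT3G47470) is at chr3:17493343-17495033 on the minus strand and its window is chr3:17495034-17495283. LHCB4.3 (AT2G40100) is at chr2:16745628-16747424 on the plus strand and its window is chr2:16745378-16745627. LHCA5 (AT1G45474) is at chr1:17179250-17180806 on the plus strand and its window is chr1:17179000-17179249.
LHCB4.2: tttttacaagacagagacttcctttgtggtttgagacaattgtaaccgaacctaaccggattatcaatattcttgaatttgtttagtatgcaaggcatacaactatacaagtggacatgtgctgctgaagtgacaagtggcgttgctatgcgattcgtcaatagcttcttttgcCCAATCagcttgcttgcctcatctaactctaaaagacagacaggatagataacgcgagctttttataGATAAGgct
LHCA4: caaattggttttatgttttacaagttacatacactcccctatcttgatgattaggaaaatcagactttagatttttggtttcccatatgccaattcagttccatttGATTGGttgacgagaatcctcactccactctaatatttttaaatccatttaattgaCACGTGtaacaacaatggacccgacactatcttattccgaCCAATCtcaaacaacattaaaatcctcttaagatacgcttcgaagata
LHCB4.3: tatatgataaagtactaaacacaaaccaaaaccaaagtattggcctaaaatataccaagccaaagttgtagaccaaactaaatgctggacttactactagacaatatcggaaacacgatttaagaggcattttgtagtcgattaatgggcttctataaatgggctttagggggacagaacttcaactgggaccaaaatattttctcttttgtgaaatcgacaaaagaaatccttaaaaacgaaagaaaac
LHCA5: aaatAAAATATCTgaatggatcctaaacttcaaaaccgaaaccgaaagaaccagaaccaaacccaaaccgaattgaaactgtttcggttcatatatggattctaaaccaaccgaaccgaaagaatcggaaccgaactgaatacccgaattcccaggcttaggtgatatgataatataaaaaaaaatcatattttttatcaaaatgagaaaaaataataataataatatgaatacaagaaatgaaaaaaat
The LHCB4.2 window holds 1 I-box, which begins 9 bases before the gene start, and 1 CCAATC. The LHCA4 window holds 1 G-box that begins 88 bases before the start and 2 CCAATC matches, the LHCA5 window 1 evening element at its far end, and the LHCB4.3 window none of the 4 motifs. Over all members, 7 of 35 windows held a G-box (20%, against 7.23% of the same windows of the other 21935 protein-coding loci of the table), 8 an I-box (22.9%, against 12.4%), 6 CCAATC (17.1%, against 10.3%) and 1 an evening element (2.86%, against 2.46%). The G-boxes stood before PSBQ1, PSBQ2, PSBTN, PSAE2, PSAH2, LHCA4 and LHCB6. A match describes these letters and is no evidence that a factor binds there.

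Per kb of transcript, LHCA4 had the highest level in untreated shoots, at 8448 ± 367 CPM per kb (SD, n = 3), followed by LHCA1 at 6971 ± 511, PSBR at 6116 ± 289 and LHCB5 at 5625 ± 190 CPM per kb. The ranges of the 3 libraries of LHCA4 and LHCA1 did not overlap. The lowest were PSB27 at 276 ± 36.4, LHCA5 at 179 ± 18.3, LHCA6 at 103 ± 9.45 and LHCB4.3 at 8.28 ± 2.02 CPM per kb. LHCA5 and LHCA6, which attach photosystem I to the chloroplast NADH dehydrogenase-like complex, thus stood far below the 4 belt proteins LHCA1 to LHCA4 before any treatment.

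In shoots at 6 h nearly the whole set was lower with citral than with ethanol. Of 35 members, 34 fell and 1, LHCB4.3, rose (20% of all 19585 shoot loci tested were called lower and 21.6% higher). In each of the 34 all 3 citral libraries lay below all 3 ethanol libraries, and for LHCB4.3 they lay above, against 25.2% and 24.1% of all loci without overlap in those directions. The median change over the 35 was −1.45, beside −0.01 over all loci. The summed level of the 35 was 17730 to 21180 CPM in citral shoots, against 64240 to 67020 CPM in ethanol shoots. The 9 shoot markers outside photosynthesis, such as the myrosinases TGG1 and TGG2 and the wax gene CER1, also moved, with 6 of 9 called lower, a median change of −0.64 and summed levels of 2533 to 2907 CPM in citral against 4374 to 4708 CPM in ethanol shoots. The part of these markers in the result was not tested. Citral shoots at 6 h also held fewer reads, 1.692 to 3.625 M against 5.212 to 17.48 M in ethanol shoots. At 1 h they held 3.447 to 3.489 M against 12.91 to 20.62 M. Depth was scaled for, but agent and depth go together here and cannot be told apart beyond that scaling. Without library quality weights 30 members were called, all lower, and PSAH1, PSBS, LHCA5, LHCA6 and LHCB4.3 were not.

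**Figure D1:**
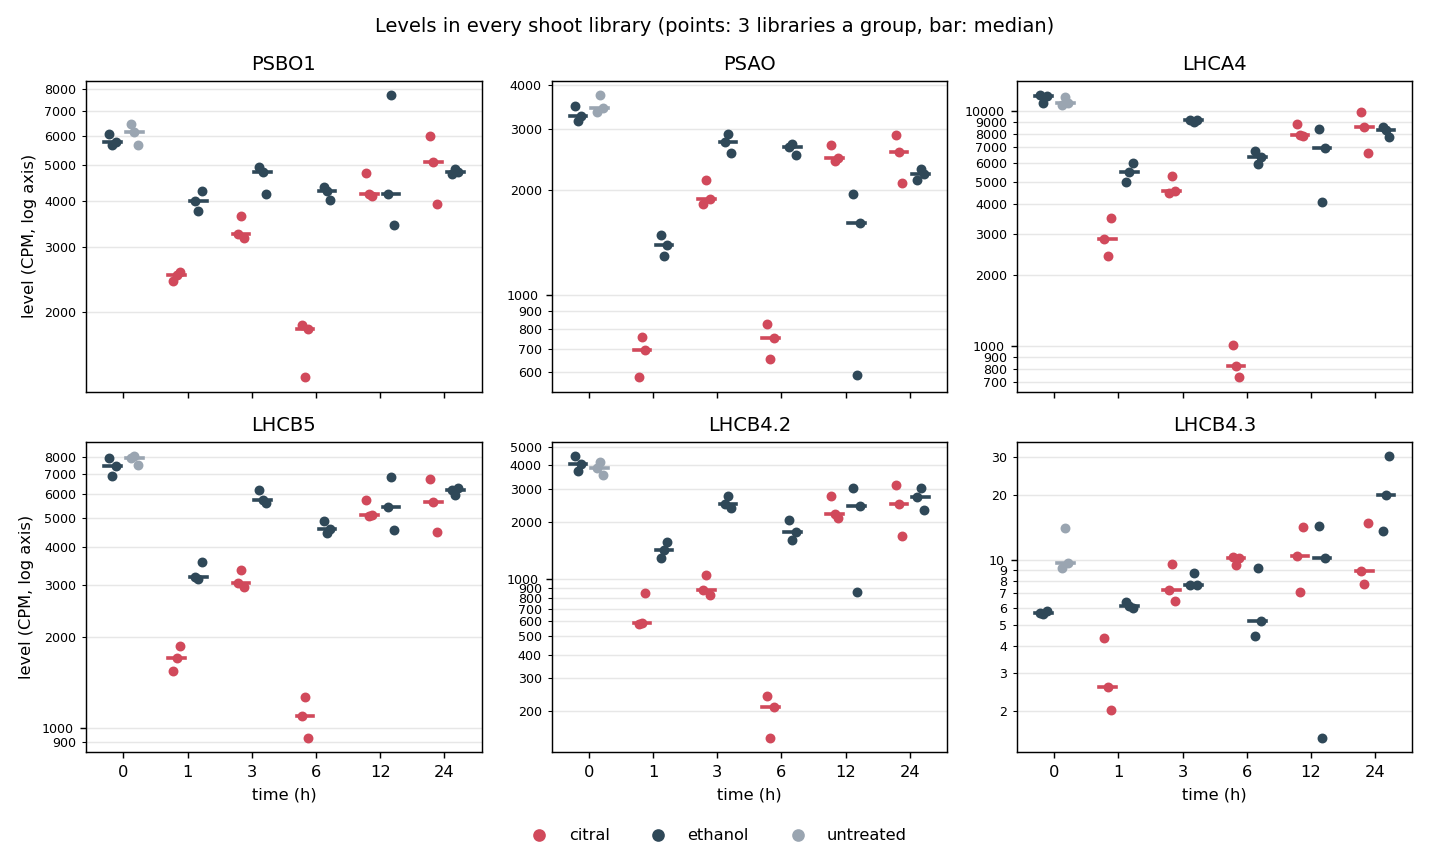
Level (CPM, log axis) of 6 members in every shoot library against time in hours, with citral in red, ethanol in dark blue and untreated in grey and a bar at the median of 3 libraries. At 6 h the citral points of PSBO1, PSAO, LHCA4, LHCB5 and LHCB4.2 lie below every ethanol point, and those of LHCB4.3 lie above them.

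Among photosystem II subunits, PSBR (AT1G79040), which helps bind PSBP and is the highest of the class per kb, had 1766, 1334 and 1763 CPM in citral shoots at 6 h, against 3846, 3872 and 3650 CPM in ethanol shoots. It was 2.32-fold lower in citral, without overlap (log2 −1.21, SE 0.12). PSBO1 (AT5G66570), the main manganese-stabilising protein of the oxygen-evolving complex, had 1855, 1335 and 1803 CPM in citral shoots at 6 h, against 4371, 4258 and 4012 CPM in ethanol shoots. All citral libraries were lower, and the change was −1.33 (SE 0.12, limma adjusted p = 1.16e-10). Its paralog PSBO2 (AT3G50820) had 495, 310 and 497 CPM in citral, against 796, 1096 and 930 CPM in ethanol shoots, a change of −1.12 (SE 0.15, adjusted p = 5.86e-07). No citral library of PSBO2 reached the ethanol range.

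Both genes for the extrinsic subunit PSBQ fell. PSBQ2 (AT4G05180) had 581, 634 and 608 CPM in citral, against 2865, 2406 and 2352 CPM in ethanol shoots, 4.07-fold lower (log2 −2.03, SE 0.11, adjusted p = 3.62e-16). PSBQ1 (AT4G21280) had 481.0, 537 and 517 CPM in citral, against 1044, 1141 and 1019 CPM in ethanol shoots, 2.06-fold lower (log2 −1.04, SE 0.10, adjusted p = 4e-10). For neither gene did any citral library reach the ethanol range. The difference between these changes was not tested.

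The remaining photosystem II subunits fell by less than PSBQ2. PSBP1, another extrinsic protein of the oxygen-evolving complex, changed by −1.59 (SE 0.11) and PSBW, which stabilises supercomplexes with the antenna, by −1.45 (SE 0.11). PSBTN, a small lumenal protein, changed by −1.38, PSBX, a small membrane subunit, by −1.13, and PSB27, an assembly and repair factor, by −0.93. The smallest changes in the class were those of PSBY, a small subunit near cytochrome b559, and PSBS, the sensor of non-photochemical quenching. PSBY had 382, 223 and 391 CPM in citral, against 531, 647 and 621 CPM in ethanol shoots, a change of −0.87 (SE 0.15, adjusted p = 1.89e-05). PSBS had 615, 595 and 564 CPM in citral, against 697, 1132 and 872 CPM in ethanol shoots, a change of −0.60 (SE 0.15, adjusted p = 0.00179). No citral library of either gene reached the lowest ethanol library. The class median was −1.17, with 12 of 12 called lower.

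All 13 photosystem I subunits were called lower, with a median of −1.52. PSAO (AT1G08380), a peripheral subunit next to the docking side for mobile antenna and the highest of the class per kb, had 824, 657 and 753 CPM in citral, against 2667, 2709 and 2528 CPM in ethanol shoots. The groups were far apart, with a 3.52-fold lower level in citral (log2 −1.82, SE 0.12, adjusted p = 4.4e-14). PSAN, a lumenal subunit on the plastocyanin side, changed by −2.14 (SE 0.12), PSAK and PSAG, small membrane subunits at the edge of the complex, by −1.72 and −1.39, PSAF, the plastocyanin-docking subunit, by −1.52, and PSAL, which holds PSAH and PSAO, by −1.49. PSAP (AT2G46820), assigned to photosystem I and also described as a thylakoid curvature protein, changed by −1.24.

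The stromal subunits that bind ferredoxin come as paralogs. PSAD2 (AT1G03130) had 115, 95.2 and 99.3 CPM in citral, against 521, 472 and 493 CPM in ethanol shoots, 4.83-fold lower (log2 −2.27, SE 0.11, adjusted p = 3.48e-17), the largest change of the class. PSAD1 (AT4G02770) had 592, 490.0 and 538 CPM in citral, against 1537, 1397 and 1361 CPM in ethanol shoots, 2.63-fold lower (log2 −1.39, SE 0.10, adjusted p = 1.07e-13). PSAE1 (AT4G28750) was 3.08-fold lower, with 414, 358 and 332 CPM in citral, against 1209, 1084 and 1075 CPM in ethanol shoots (log2 −1.62, SE 0.13, adjusted p = 2.72e-12). PSAE2 (AT2G20260) was 2.45-fold lower, with 314, 185 and 323 CPM in citral, against 716, 637 and 669 CPM in ethanol shoots (log2 −1.29, SE 0.15, adjusted p = 1.52e-08). All citral libraries lay below all ethanol libraries for each of these genes.

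PSAH, the subunit at which mobile antenna docks, is also encoded by a pair of genes, and both fell. PSAH2 (AT1G52230) had 311, 292 and 283 CPM in citral, against 1101, 1143 and 1062 CPM in ethanol shoots (log2 −1.90, SE 0.11, adjusted p = 1.41e-15). PSAH1 (AT3G16140) had 312, 245 and 324 CPM in citral, against 728, 705 and 670 CPM in ethanol shoots (log2 −1.22, SE 0.16, adjusted p = 3.82e-07). Within the coding sequences the pairs are 79.5% (PSAE) to 88% (PSAD) identical, with 72.8% for LHCB4.2 and LHCB4.3, and the longest stretches without a mismatch span 20 to 35 bases. How the authors' counting divided reads between copies is not given in the sources used here, so differences between paralogs carry that uncertainty.

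The photosystem I antenna held both some of the largest and the smallest changes. LHCA4, part of the heterodimer with LHCA1, had 1007, 824 and 735 CPM in citral, against 6740, 5968 and 6345 CPM in ethanol shoots, 7.69-fold lower (log2 −2.94, SE 0.13, adjusted p = 1.73e-18). LHCA1 (AT3G54890) had 925, 557 and 697 CPM in citral, against 4441, 4106 and 4331 CPM in ethanol shoots, 6.12-fold lower (log2 −2.61, SE 0.15, adjusted p = 3.06e-15). For both genes the highest citral library held less than any ethanol library by a wide margin. LHCA3 and LHCA2, the other heterodimer, changed by −2.12 (SE 0.13) and −1.70 (SE 0.13).

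The linker genes LHCA5 and LHCA6 had the smallest changes of the class. LHCA6 (AT1G19150) had 52.4, 42.0 and 47.5 CPM in citral, against 69.0, 96.7 and 93.2 CPM in ethanol shoots (log2 −0.88, SE 0.21, adjusted p = 0.00124). LHCA5 had 102, 110 and 102 CPM in citral, against 113, 139 and 138 CPM in ethanol shoots (log2 −0.35, SE 0.12, adjusted p = 0.0173). The nearest libraries of LHCA5 almost met, and its call was lost without ethanol replicate 2 (adjusted p = 0.168), ethanol replicate 3 (adjusted p = 0.147), citral replicate 1 (adjusted p = 0.0505) or citral replicate 3 (adjusted p = 0.0984). The class median was −1.91, with 6 of 6 called lower.

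The minor antenna held the largest fall of the 35 and the only rise. LHCB4.2, 1 of 3 Arabidopsis genes for the linker between core and outer antenna, had 242, 144 and 211 CPM in citral, against 2049, 1616 and 1767 CPM in ethanol shoots, 9.06-fold lower (log2 −3.18, SE 0.19, adjusted p = 4.97e-14). LHCB6 (AT1G15820), which binds next to that linker, had 554, 316 and 508 CPM in citral, against 2369, 2572 and 2433 CPM in ethanol shoots, 5.43-fold lower (log2 −2.44, SE 0.16, adjusted p = 6.22e-14). LHCB5 (AT4G10340), on the other side of the core, had 1099, 1270 and 923 CPM in citral, against 4890, 4463 and 4582 CPM in ethanol shoots, 4.36-fold lower (log2 −2.13, SE 0.11, adjusted p = 1.64e-16). These 3 genes were low in every citral library.

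LHCB4.3, a divergent LHCB4 copy also known as LHCB8, had 10.3, 9.46 and 10.2 CPM in citral, against 4.46, 9.21 and 5.20 CPM in ethanol shoots. The groups touched without overlapping, and the change was 0.94 (SE 0.30, adjusted p = 0.0116). Its call was lost in the fit without ethanol replicate 1 (adjusted p = 0.103), without citral replicate 1 (adjusted p = 0.0573) and without citral replicate 3 (adjusted p = 0.0777), each with a positive change. The class median was −2.28.

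**Figure D2:**
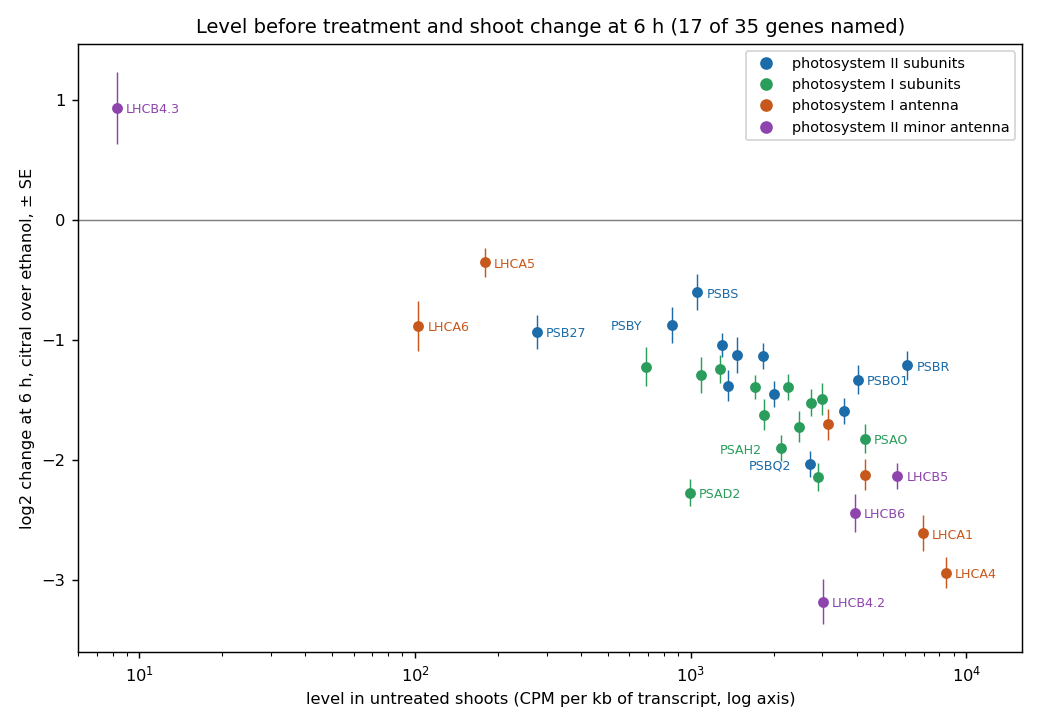
Fitted log2 change in shoots at 6 h (citral over ethanol, ± SE) against the level in untreated shoots in CPM per kb of transcript (log axis), 1 point a gene, coloured by class and with 17 of 35 named. LHCB4.3, lowest in level, is the only point above 0, LHCA4 and LHCB4.2 are the lowest points, and members with higher levels mostly lie further down (Spearman's rho −0.72 across the 35 genes).

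Members with higher levels in untreated shoots tended to fall more at 6 h: across the 35 genes Spearman's rho between the level per kb and the log2 change was −0.72. It was −0.11 for the changes at 1 h and −0.25 at 3 h. These genes share libraries and are not independent, and genes with levels near 10 CPM are measured with larger errors. Within the pattern, PSBR, at place 3 in level, changed by −1.21 (SE 0.12), and PSAD2, at place 29 of 35 in level, by −2.27 (SE 0.11).

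The falls were already present at 1 h and 3 h, at smaller size. At 1 h, 29 of 35 members were called lower and 0 higher (7.92% of all loci were called lower and 12.6% higher), with a median of −0.69 beside −0.03 over all loci. In 33 members all citral libraries were below all ethanol libraries, against 30.3% of all loci. At 3 h, 31 were called lower and 0 higher (26.4% of all loci were called lower and 23.7% higher), with a median of −0.54 beside −0.07, and 34 members had all citral libraries below all ethanol libraries, against 39.4% of loci. The summed level was 26630 to 30720 CPM in citral against 47130 to 52770 CPM in ethanol shoots at 1 h, and 45640 to 52940 against 74910 to 80940 CPM at 3 h. The 9 shoot markers outside photosynthesis had 0 calls at 1 h and 4 lower at 3 h. With limma-trend on log2(CPM + 0.5) in place of voom, 14 members were called at 1 h and 16 at 3 h, and with quantile normalization the 3 h changes of PSBO1 (0.14) and PSBR (0.07) were above 0.

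Single members led at these times in a different order from that at 6 h. PSBS had 160, 253 and 148 CPM in citral, against 434, 391 and 483 CPM in ethanol shoots at 1 h, a change of −1.15 (SE 0.16, adjusted p = 1.23e-06), the largest of the 35 at that time. At 3 h PSBS had 801, 779 and 837 CPM in citral, against 1256, 1003 and 1012 CPM in ethanol shoots and did not pass the test (log2 −0.28, adjusted p = 0.0833). LHCB4.2 had 872, 1059 and 823 CPM in citral, against 2513, 2754 and 2389 CPM in ethanol shoots at 3 h, a change of −1.41 (SE 0.17, adjusted p = 4.55e-08). It was followed at 3 h by LHCB6 and PSAH2, both at −1.15, PSAD2 at −1.06 and PSB27 at −1.02. PSB27 was not called at 1 h (−0.22, adjusted p = 0.3), and neither were PSBY, PSAE2, PSAH1, LHCA6 and LHCB4.3. PSBS, PSAE2, LHCA5 and LHCB4.3 were the 4 not called at 3 h.

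**Figure D3:**
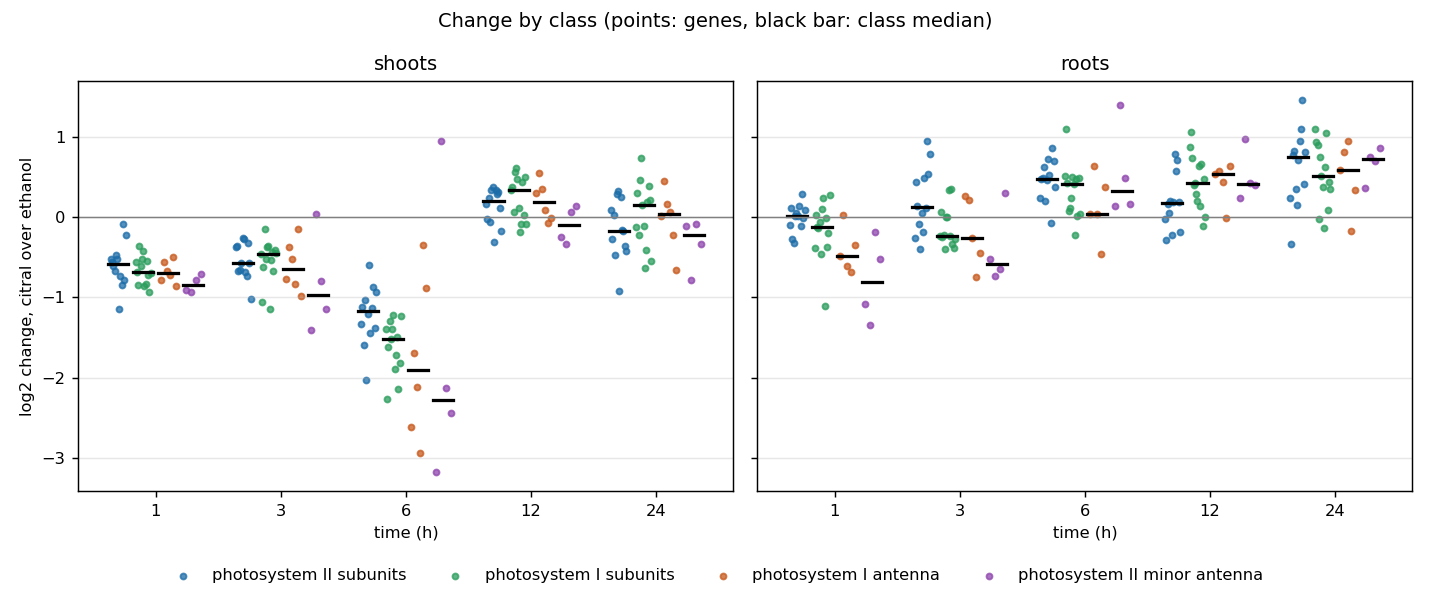
Fitted log2 change (citral over ethanol) of every member at 1, 3, 6, 12 and 24 h, for shoots on the left and roots on the right, coloured by class, with a black bar at each class median. In shoots all 4 class medians are lowest at 6 h, ordered from −1.17 for photosystem II subunits to −2.28 for the minor antenna. In roots the medians of all 4 classes are above 0 from 6 h on.

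At 1 h the class medians were close, at −0.59 for photosystem II subunits, −0.69 for photosystem I subunits, −0.69 for the photosystem I antenna and −0.85 for the minor antenna. At 3 h they were −0.57, −0.46, −0.65 and −0.98 in that order. At 6 h they were −1.17, −1.52, −1.91 and −2.28, and the single genes of the classes overlapped widely. The classes hold 4 to 13 genes of the same libraries, and no test was made between them.

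At 12 h no fall was called. In shoots 13 members were called higher and 0 lower (18.9% of all loci were called higher and 19% lower), with a median of 0.13 beside −0.02 over all loci. Of these 13, 7 were photosystem I subunits, 4 photosystem II subunits and 2 photosystem I antenna genes. PSAF had 3116, 2662 and 2651 CPM in citral, against 1858, 1753 and 1745 CPM in ethanol shoots, 1.52-fold higher (log2 0.61, SE 0.10, adjusted p = 1.92e-05). PSAO had 2688, 2420 and 2468 CPM in citral, against 1945, 588 and 1611 CPM in ethanol shoots (log2 0.50, SE 0.12, adjusted p = 0.00109). LHCA4 had 8808, 7900 and 7794 CPM in citral, against 8352, 4104 and 6971 CPM in ethanol shoots, and did not pass the test (log2 0.08, adjusted p = 0.665).

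The 12 h result depends on the ethanol libraries. Replicate 2 held 0.3348 M reads, with 73.9% of loci at the floor, and stood apart for many members, and the fit gave it a weight of 0.023. Without it 14 members were called. Without ethanol replicate 1, and likewise without ethanol replicate 3, which leaves the small library beside 1 other, 0 were called.

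At 24 h members went both ways: 7 were called higher and 9 lower (16% and 17.2% of all loci), with a median of −0.11 beside −0.06. Both counts of 35 lie near the shares of all loci, so they do not set the members apart. PSAF remained above, with 3078, 2859 and 2203 CPM in citral, against 1663, 1620 and 1830 CPM in ethanol shoots (log2 0.73, SE 0.10, adjusted p = 1.42e-06). LHCA2 (0.45), PSAE2 (0.46), PSAN (0.39), PSBR (0.32), PSAD2 (0.30) and PSBQ2 (0.28) were the other members called higher. PSBS was the furthest below, with 1006, 858 and 1157 CPM in citral, against 1632, 1804 and 1987 CPM in ethanol shoots (log2 −0.92, SE 0.15, adjusted p = 1.17e-05). PSAH2 had 1067, 892 and 829 CPM in citral, against 1569, 1375 and 1434 CPM in ethanol shoots (log2 −0.63, SE 0.11, adjusted p = 1.99e-05). The groups did not overlap for these 3 genes.

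The other 7 called lower at 24 h were LHCB4.3 (−0.78), LHCA6 (−0.66), PSAP (−0.55), PSBQ1 (−0.48), PSB27 (−0.42), PSAK (−0.41) and PSBTN (−0.36). LHCB4.3, the member that rose at 6 h, had 8.86, 7.74 and 14.8 CPM in citral, against 13.7, 19.9 and 30.2 CPM in ethanol shoots at 24 h, with overlapping groups (SE 0.30, adjusted p = 0.0449). Ethanol replicate 3 of shoots at 24 h held 0.3639 M reads and kept a quality weight of 0.971. The named rises and falls at 24 h rest on a split between directions that changed with the libraries used. It was 1 higher and 6 lower without ethanol replicate 1, 2 and 5 without ethanol replicate 2, 1 and 12 without citral replicate 1, 1 and 4 without citral replicate 2, and 8 and 6 without citral replicate 3. Quantile normalization gave 12 higher and 8 lower, library size times the authors' factors 8 and 6, the fit without library quality weights 1 and 2, and limma-trend 1 and 1.

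The shoot response differed between times for 34 of 35 members by limma's F test (56.1% of all loci), the exception being LHCA5 (adjusted p = 0.137). Both treatment courses moved, and the ethanol libraries serve in both the citral comparisons and the steps described next. In ethanol shoots 34 of 35 members fell within the first hour (1 h against 0 h, median −1.17, 29.8% of all loci lower), 30 rose by 3 h (0.81, 31% higher), 17 fell by 6 h (−0.31, 7.34% lower), 15 rose and 5 fell by 12 h (0.19, 20.1% in each direction) and 6 rose by 24 h (0.33, 4.28% higher). In citral shoots 31 rose and 1, PSB27, fell from 1 to 3 h (median 0.85, 18.2% of all loci in each direction), 32 fell from 3 to 6 h (−1.20, 10.9% lower), and 34 rose from 6 to 12 h (1.77, 15.5% higher). The 5 falls by 12 h in ethanol shoots and the 1 fall by 3 h in citral shoots lie below the shares of all loci. From 12 to 24 h limma's voom fit called 0 members in citral shoots, with 1 at an unadjusted p under 0.05 (1.57% of loci were called higher and 1.89% lower).

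LHCA4 shows the course in every library. It had 2842, 2403 and 3516 CPM in citral shoots at 1 h, 4450, 5291 and 4552 at 3 h, 1007, 824 and 735 at 6 h, 8808, 7900 and 7794 at 12 h and 9860, 8553 and 6584 CPM at 24 h. In ethanol shoots it had 11650, 10800 and 11520 CPM at 0 h, 4998, 5469 and 5988 at 1 h, 9170, 8965 and 9111 at 3 h, 6740, 5968 and 6345 at 6 h, 8352, 4104 and 6971 at 12 h and 8516, 8264 and 7744 CPM at 24 h. At 1 h both courses lay below the ethanol libraries of 0 h, and the citral course starts at 1 h. From 3 to 6 h the level was lower in every library of both courses, with the lowest levels in citral. In citral shoots the step from 6 to 12 h was 3.44 (SE 0.13, adjusted p = 5.67e-20) for LHCA4 and 3.69 (SE 0.19, adjusted p = 3.46e-15) for LHCB4.2, while LHCB4.3 stayed without a call (0.07, adjusted p = 0.899).

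Time of day moved with these steps. The summed level of the morning clock genes LHY and CCA1, looked at after the values were known, was 4.14 to 8.87 CPM in citral against 7.08 to 13.6 CPM in ethanol shoots at 6 h, 154.5 to 171 against 505 to 1344 CPM at 12 h, and 159 to 189 against 777 to 844 CPM at 24 h. At 1 h it was 1.00 to 6.96 CPM in citral against 9.94 to 12.5 CPM in ethanol shoots. At 3 h it was 39.0 to 53.3 against 103 to 165 CPM, above the ethanol levels of both 1 h and 6 h. At 0 h, the same hour of the light period as 24 h, ethanol shoots had 61.9 to 66.9 CPM of these genes. Untreated shoots at 0 h had 156 to 179 CPM, so levels differed at the same hour of the light period. The 505 CPM at 12 h is that of ethanol replicate 2, the library with 0.3348 M reads, against 1344 and 1216 CPM in the other ethanol libraries. The part of these clock genes in the steps and in the changes at 12 and 24 h was not tested.

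At 0 h ethanol shoots differed from untreated shoots in 5 of 35 members, all lower (13% of all loci were called lower and 9.24% higher). That count lies near the share of all loci called lower. By limma's voom fit the 5 members were LHCB4.3 (−0.90, adjusted p = 0.000664), LHCA6 (−0.68, adjusted p = 0.00175), PSBS (−0.46, adjusted p = 0.00891), PSAP (−0.42, adjusted p = 0.00279) and LHCA5 (−0.30, adjusted p = 0.0184). LHCB4.3 had 5.66, 5.63 and 5.80 CPM in ethanol shoots, against 9.18, 14.0 and 9.63 CPM in untreated shoots. LHCA6 had 83.2, 65.4 and 77.9 CPM in ethanol, against 128, 123 and 107 CPM in untreated shoots. The groups did not overlap for these 5 genes (14.9% of all loci lay lower without overlap), and the median over the 35 was −0.13. Without ethanol replicate 3 of 0 h, 2 members were called.

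**Figure D4:**
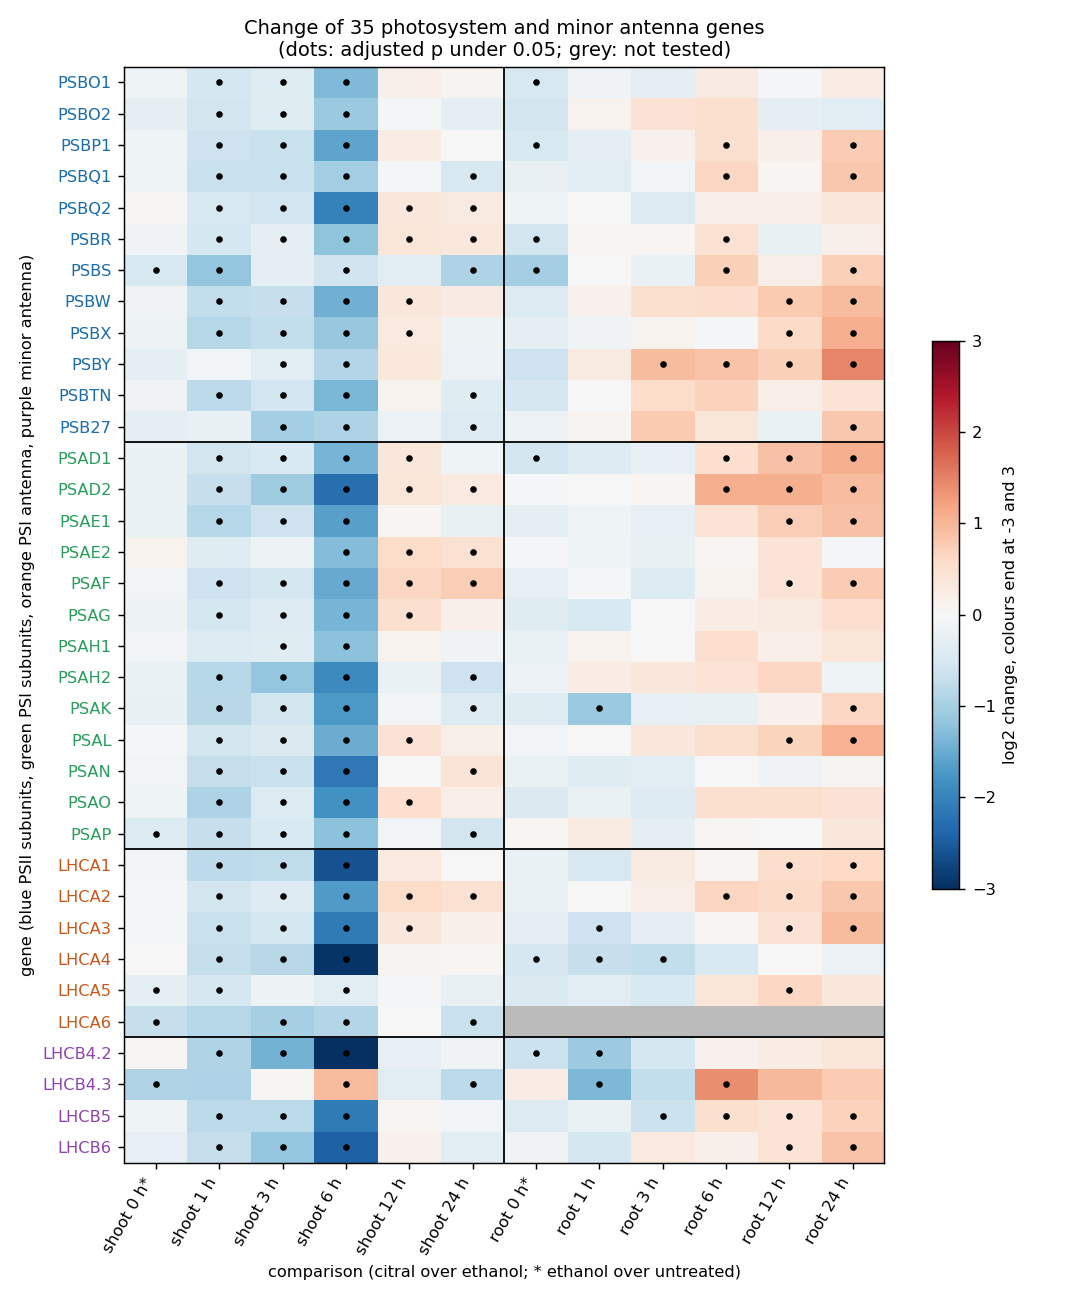
Fitted log2 change of the 35 members (rows, by class) in shoots and roots at each time (columns), with blue lower and red higher, colours ending at −3 and 3, and dots at adjusted p under 0.05. Columns with an asterisk compare ethanol with untreated seedlings at 0 h, all others citral with ethanol, and grey marks LHCA6, which was not tested in roots. The shoot columns at 1, 3 and 6 h are blue in nearly every row, and the root columns from 6 to 24 h are mostly red.

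In roots the same genes had low levels, and those called at later times were higher in citral. Over all root libraries the 35 summed to 424 to 2425 CPM (median 722.1). LHCA6 was near the floor and was not tested, which leaves 34 members. Citral called 0 higher and 5 lower at 1 h (21.6% of all 20147 root loci tested were called higher and 21.9% lower), 1 higher and 2 lower at 3 h (21.5% and 25.9%), 10 higher and 0 lower at 6 h (22.6% and 26.1%), 14 higher and 0 lower at 12 h (18% and 18.1%) and 18 higher and 0 lower at 24 h (19.8% and 18.7%). The medians were −0.11, −0.14, 0.42, 0.40 and 0.66 in that order, beside medians over all loci between −0.11 and 0.02.

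The early falls called in roots were few, with 5 of 34 members at 1 h and 2 at 3 h. Both counts are below the shares of all root loci called lower, 21.9% and 25.9%. They were in antenna genes and PSAK. LHCA4 had 41.4, 64.1 and 59.7 CPM in citral, against 118, 97.1 and 108 CPM in ethanol roots at 1 h (log2 −0.69, SE 0.19, adjusted p = 0.00325). At 3 h it had 103, 95.3 and 96.7 CPM in citral, against 188, 203 and 187 CPM in ethanol roots (log2 −0.75, SE 0.21, adjusted p = 0.00405). At both times every citral root library was lower, and at 6, 12 and 24 h LHCA4 was not called. LHCB4.2 had 4.87, 7.41 and 6.80 CPM in citral, against 17.1, 14.8 and 19.8 CPM in ethanol roots at 1 h (log2 −1.09, SE 0.28, adjusted p = 0.00164). PSAK had 5.48, 4.15 and 5.62 CPM in citral, against 14.6, 12.5 and 11.2 CPM in ethanol roots at 1 h (log2 −1.11, SE 0.24, adjusted p = 0.000218). LHCA3 (−0.61) and LHCB4.3 (−1.34) at 1 h and LHCB5 at 3 h (−0.65) were the other falls, and the groups of LHCB4.3 overlapped. With library size alone as the scaling 11 members were called at 1 h and 6 at 3 h, and limma-trend called 1 at 1 h. At 3 h limma-trend called 3 members higher and 0 lower, with a median over the members of 0.40 in place of −0.14, so that LHCA4 and LHCB5 were not called. The calls at 3 h were 1 without ethanol replicate 2 and 0 without ethanol replicate 3.

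From 6 h on the called members were higher in citral roots. At 6 h the count, 10 of 34, lies near the share of all root loci called higher (22.6%), and 0 were called lower (26.1%). PSBY was called at 3, 6, 12 and 24 h. At 24 h it had 10.7, 15.9 and 16.5 CPM in citral, against 5.25, 5.33 and 8.24 CPM in ethanol roots, with no overlap (log2 1.46, SE 0.24, adjusted p = 1.05e-05). PSAD1 and PSAD2 were called at 6, 12 and 24 h. PSAD1 had 31.3, 28.8 and 36.5 CPM in citral, against 15.6, 18.6 and 17.4 CPM in ethanol roots at 12 h (log2 0.87, SE 0.16, adjusted p = 3.43e-05), and 26.4, 32.7 and 26.0 CPM against 13.5, 13.9 and 27.1 CPM at 24 h (log2 1.10, SE 0.18, adjusted p = 8.18e-06). At 12 h every citral root library was above, and at 24 h ethanol replicate 3 lay within the citral range.

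PSBX had 21.8, 29.8 and 25.3 CPM in citral, against 12.8, 12.1 and 16.6 CPM in ethanol roots at 24 h (log2 1.09, SE 0.16, adjusted p = 1e-06). PSAL had 20.9, 24.0 and 25.3 CPM in citral, against 11.6, 12.0 and 16.7 CPM in ethanol roots at 24 h (log2 1.04, SE 0.22, adjusted p = 0.000385). LHCB5 had 57.0, 78.3 and 60.2 CPM in citral, against 43.2, 39.0 and 61.8 CPM in ethanol roots at 24 h (log2 0.70, SE 0.15, adjusted p = 0.000477). PSBX and PSAL did not overlap between groups, and LHCB5 did. LHCB4.3, lower at 1 h, had 3.49, 6.32 and 3.51 CPM in citral, against 1.20, 1.38 and 2.54 CPM in ethanol roots at 6 h, with no overlap (log2 1.39, SE 0.39, adjusted p = 0.00296).

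The root rises at 24 h rest on a small number of control libraries. Ethanol replicate 3 had a summed level of 1179 CPM, against 729 and 734 CPM in the other ethanol libraries and 866 to 1071 CPM in citral roots, and the fit gave it a weight of 0.154. Only 6 of the 34 members had all citral libraries above all ethanol libraries at 24 h (18.2% of all loci). The number called was 1 without ethanol replicate 1, 2 without ethanol replicate 2 and 11 without citral replicate 2. At 12 h, where the groups of all 14 called members did not overlap (19.2% of all loci lay higher without overlap), it was 7 without ethanol replicate 2 and 7 without citral replicate 3, and at 6 h it was 3 without ethanol replicate 2. Without library quality weights it was 5 at 6 h, 6 at 12 h and 6 at 24 h, and with limma-trend 1, 1 and 0 at those times.

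**Figure D5:**
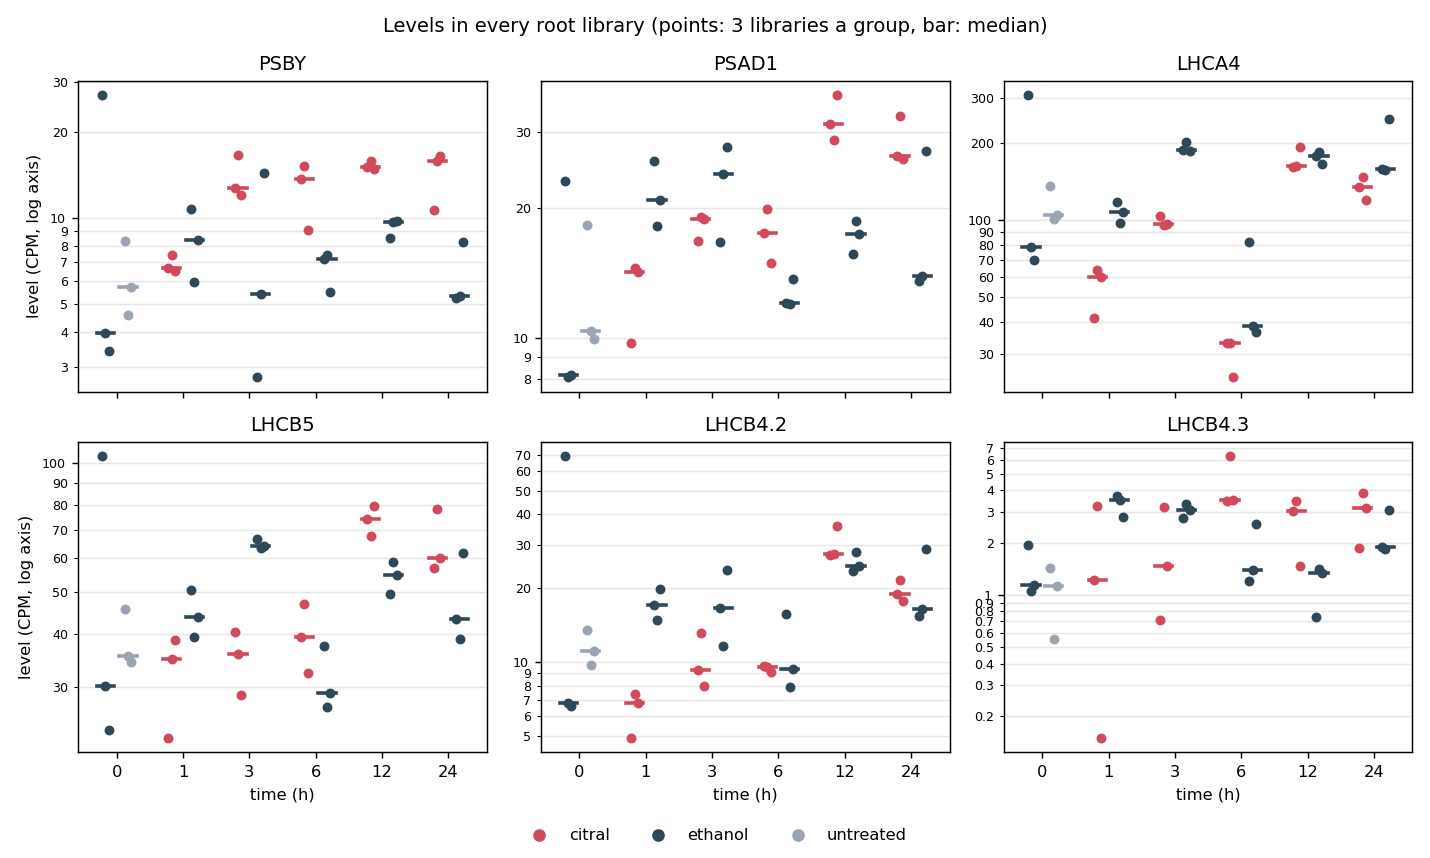
Level (CPM, log axis) of 6 members in every root library against time in hours, with citral in red, ethanol in dark blue and untreated in grey and a bar at the median of 3 libraries. PSAD1 and PSBY lie higher in citral at 12 h in every library, LHCA4 lies lower in citral at 1 and 3 h, and 1 ethanol library stands far above the other 0 h libraries.

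Markers of both organs were followed in the same root libraries. The 9 shoot markers outside photosynthesis, of which 1 was at the floor in all root libraries, summed to 56.9 to 81.6 CPM in citral against 55.0 to 67.0 CPM in ethanol roots at 24 h, 52.7 to 64.9 against 51.3 to 58.4 CPM at 12 h, and 58.6 to 67.5 against 47.2 to 57.8 CPM at 6 h. Of the 6 that were tested in roots, 1 was called higher and 1 lower at 24 h (19.8% and 18.7% of all root loci). Both counts lie near those shares, so they do not set the markers apart. The 7 root markers, genes of root hairs and of the endodermis, summed to 115 to 168 CPM in citral against 366 to 390.1 CPM in ethanol roots at 24 h, with citral also lower at every earlier time. Their part in the rises was not tested.

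At 0 h ethanol roots were lower than untreated roots in 7 members (11.5% of all loci were called lower and 14.6% higher): PSBS (−1.02), LHCB4.2 (−0.65), PSBR (−0.55), PSAD1 (−0.54), LHCA4 (−0.50), PSBO1 (−0.49) and PSBP1 (−0.48). LHCA4 had 308, 78.2 and 69.8 CPM in ethanol roots, against 136, 101 and 105 CPM in untreated roots. The high value is that of replicate 1, the library with 0.2598 M reads, whose 35 members summed to 2425 CPM and whose 9 shoot markers summed to 215.5 CPM, against 70.3 and 69.9 CPM in the other ethanol libraries. The calls depended on single libraries: 0 members were called without untreated replicate 1, without ethanol replicate 2 or without ethanol replicate 3, and 11 without untreated replicate 3. The fit of the compared groups alone also called 0. With limma-trend the changes of PSBO1 (0.28), PSBP1 (0.32), PSBR (0.16), LHCA4 (0.11) and LHCB4.2 (0.42) were above 0 and 0 of 34 members were called.

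The root levels also moved along both courses, and the ethanol libraries again serve in the comparisons with citral as well. In ethanol roots 23 members rose and 2 fell from 0 to 1 h (22.8% and 26.5% of all loci), 6 rose by 3 h (8.07%), 8 fell by 6 h (2.89%), 19 rose and 1 fell by 12 h (10.7% and 11.2%) and 28 fell by 24 h (8.55%). In citral roots 10 rose from 1 to 3 h (13.5%), 1 rose and 6 fell by 6 h (15.9% and 17.2%) and 16 rose by 12 h (10.4%). The falls of 2 and of 1 in ethanol roots and the 1 rise by 6 h in citral roots lie below the shares of all loci. The 6 falls by 6 h in citral roots lie near that share. From 12 to 24 h limma's voom fit called 0 members in citral roots, with 5 at an unadjusted p under 0.05 (2.41% of all loci were called higher and 3.36% lower). The root response differed between times for 13 of 34 members by the F test (57.7% of all loci). Without library quality weights the calls over all steps numbered 52 in ethanol and 17 in citral roots and the F test called 7 members, and with limma-trend they numbered 9 and 7 and the F test called 2. The ethanol 0 h group holds the small library with a summed member level of 2425 CPM, against 498 and 424 CPM in the other libraries of the group.

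The citral response differed between organs for 35 of 35 members by limma's F test over the 5 times (63.9% of all loci). Time by time, the shoot response minus the root response was called lower for 6 members at 1 h (7.42% of all loci lower), 9 at 3 h (9.03%), 33 at 6 h (12.3%), 2 at 12 h (10.1%) and 16 at 24 h (16.5%). It was called higher for 1 member, PSBR at 12 h (14.1% of all loci higher). The median difference at 6 h was −1.94, with the most negative for PSAD2 (−3.40) and LHCB4.2 (−3.36). PSAD2 had 5.52, 6.32 and 6.72 CPM in citral roots at 6 h, against 3.604, 2.515 and 4.296 CPM in ethanol roots, the opposite direction to that in shoots. LHCA6 enters these tests with root values near the floor, so its fitted difference depends on the 0.5 read set there.

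Other genes of photosynthesis, from lists drawn up by function, were also followed in shoots. Of 14 electron transport and ATP synthase genes, 1 was called higher and 12 lower at 6 h (21.6% and 20% of all shoot loci), with a median of −0.63. The count higher is below the share of all loci. The plastocyanin genes PETE1 (−1.29, SE 0.12, adjusted p = 3.35e-10) and PETE2 (−1.02, SE 0.11, adjusted p = 8.83e-09) led the falls with LFNR2, a ferredoxin-NADP reductase (−1.04, adjusted p = 4.31e-07), and ATPD, the delta subunit of the ATP synthase (−0.81, adjusted p = 1.49e-07). The gene called higher, FD1, a minor leaf ferredoxin that is named after its values were seen, had 147 ± 42.9 CPM in citral against 66.6 ± 25.6 CPM in ethanol shoots (SD, n = 3 each; log2 1.13, adjusted p = 0.00184). Of 12 photosystem assembly factors, 4 were called lower at 1 h (7.92% of all loci), 10 at 3 h (26.4%), 8 at 6 h (20%), 2 at 12 h (19%) and 3 at 24 h (17.2%), and the last 2 counts lie near the background. At 3 h PAM68 (−1.32, adjusted p = 6.21e-10) and RBD1 (−1.07, adjusted p = 1.29e-09), which act in photosystem II assembly, fell most clearly, with CPSRP43, which delivers antenna proteins (−0.70, adjusted p = 1.32e-06), and PSA3, a photosystem I assembly factor (−0.61, adjusted p = 2.32e-06).

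More regulators of photosynthesis genes were called lower than higher in shoots at 3 and 6 h. Of 14, 2 were called higher and 9 lower at 3 h (23.7% and 26.4% of all loci), and 4 higher and 7 lower at 6 h (21.6% and 20%). The count higher at 3 h is below the share of all loci. The genes named next were all called lower, and those called higher are not named. GLK2, a transcription factor of chloroplast development, had 63.0, 72.2 and 75.2 CPM in citral, against 249, 216 and 200.4 CPM in ethanol shoots at 3 h (log2 −1.54, SE 0.15, adjusted p = 1.72e-10). It was called lower at 1, 3 and 6 h, and GLK1 at 3 h (−0.83, adjusted p = 6.75e-05) and 6 h (−0.44, adjusted p = 0.0498). GNC, a GATA factor that promotes greening, had 9.91, 7.57 and 9.07 CPM in citral, against 44.7, 32.6 and 34.9 CPM in ethanol shoots at 3 h and was called lower. At that time PIF1, a light-signalling repressor of chlorophyll genes, changed by −0.98 (adjusted p = 2.53e-07) and SIG1, a plastid sigma factor, by −0.83 (adjusted p = 2.9e-07). These factors and the members come from the same libraries, and no relation between them was tested.

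Of 14 genes of photosystem repair and photoprotection, 11 were called higher and 0 lower in roots at 6 h (22.6% and 26.1% of all loci). At 1 h 6 were called higher and 1 lower (21.6% and 21.9%), at 3 h 8 and 0 (21.5% and 25.9%), at 12 h 7 and 1 (18% and 18.1%) and at 24 h 8 and 1 (19.8% and 18.7%). At 6 h FTSH8, a subunit of the thylakoid protease that removes damaged reaction-centre protein, had 110.2, 120.1 and 96.4 CPM in citral, against 21.6, 25.8 and 29.5 CPM in ethanol roots (log2 2.08, SE 0.13, adjusted p = 4.8e-16), and FTSH1 (1.38) and FTSH5 (1.21) rose with it. ELIP2, an early light-induced protein, had 61.9, 54.3 and 24.0 CPM in citral, against 1.502, 1.635 and 1.841 CPM in ethanol roots (log2 4.57, SE 0.46, adjusted p = 1.77e-09), and ELIP1 had 118.6, 101.7 and 48.8 CPM, against 6.91, 5.41 and 7.36 CPM (log2 3.72, SE 0.45, adjusted p = 1.25e-07). Every citral library was above for these genes. In shoots at 6 h 4 of the 14 were called higher and 5 lower (21.6% and 20% of all loci). ELIP1 and ELIP2 were called there (adjusted p = 0.0376 and adjusted p = 0.00365) with overlapping groups and levels of at most 5.44 and 8.30 CPM.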

How the data were processed

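RNA-seq libraries of 72 samples fall into 24 groups of 3 by organ, agent and time, per the labels. The members, the other lists and the tests were chosen with earlier results of these data known. The authors deposited 1 table of 22122 loci whose values are whole numbers of at least 1 and are handled here as a score, named TMM-scaled per the file name. Reads were placed on TAIR10, as the submitters' processing notes name it. Which aligner and counter were used, and whether strand was read, is not given in the sources used here. No column of samples was set aside (0).

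In each library the deposited scores were taken as whole reads times 1 factor (0.6678 to 1.3109), rounded, with a floor of 1. In the 32 libraries with a factor above 1, 100% of the values up to 150 lay on this grid. At a factor of 1 or below every whole number lies on the grid, so this share cannot check those libraries. Dividing by the factor gave the reads, and values at the floor were taken as 0.5 read. Depth was not scaled in the deposited scores. The planned test on the deposited values was therefore run on these reads, scaled by library size and TMM.

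Each organ was fitted with limma 3.58.1 in R 4.3.3 (voom with library quality weights, 12 groups, 36 libraries, robust empirical Bayes), and both organs together for differences between organs. Loci were kept with 1 CPM, above the floor, in 3 libraries. Adjusted p-values are Benjamini-Hochberg values over all loci tested (19585 in shoots, 20147 in roots, 21092 jointly), with a threshold of 0.05. The shoot fit was also run on simulated reads, with the same extra spread at every locus and no aberrant library. That setting is simpler than these data, so it does not check the fit against their noise. All 72 replicate pairs differed by more than sampling noise (variance at least 1.27 times it). Replicates were numbered in accession order, so numbers pair nothing. Genes given per library were those with the highest level of each class, the 4 largest and 4 smallest changes at 6 h in shoots, paralogs, any member called against the rest, and others where a result rested on them. Alternatives were other scalings, filters, weights and tests, the compared groups alone, and each library left out. Promoter windows and gene models came from RefSeq TAIR10.1, read with Python 3.11.15.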

Additional observations from a re-analysis of the deposited data

Results flagged for a closer look

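The citral response differed between organs for 35 of 35 members by limma's F test (63.9% of all loci), between the 5 times in shoots for 34 of 35 (56.1%), and between the times in roots for 13 of 34 tested (57.7%), a share below that of all loci. Time by time, the shoot response differed from the root response for 6 members at 1 h, all lower in shoots (7.42% of all loci lower), 9 at 3 h, all lower (9.03%), and 33 at 6 h, all lower (12.3%), by the test of the difference itself. It differed for 3 members at 12 h, of which 1, PSBR, was higher in shoots (0.63, 14.1% of all loci higher), and PSAD1 (−0.50) and PSAH2 (−0.76) were lower (10.1%). At 24 h it differed for 16, all lower in shoots (16.5%).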

How the results depend on the processing

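No paired analysis was possible because the labels give no shared replicate numbers. In shoots at 6 h the number of members called was 33 to 35 with 1 library left out, and 34 fell under each of the other scalings and filters that were run, or 30 without quality weights and with limma-trend. Leaving out 1 library gave, in shoots, a range of 27 to 30 calls for the 1 h comparison, 25 to 32 for 3 h, 0 to 14 for 12 h, 5 to 14 for 24 h, and 2 to 5 for 0 h. In roots the ranges were 4 to 7 for 1 h, 0 to 3 for 3 h, 3 to 13 for 6 h, 7 to 14 for 12 h, 1 to 18 for 24 h, and 0 to 11 for 0 h. Library size without TMM gave 11 calls in roots at 1 h, 6 at 3 h and 12 at 0 h, and library size times the authors' factors, an alternative chosen after seeing the data, gave 10 at 1 h. Quantile normalization gave 3 in shoots at 0 h and 16 in roots at 6 h. Voom without quality weights gave 3 in shoots at 24 h and 2 at 0 h, and in roots 5 at 6 h, 6 at 12 h, 6 at 24 h, 1 at 0 h, 52 over the ethanol steps, 17 over the citral steps and 7 in the F test over times. Limma-trend with 0.5 CPM added gave 14 in shoots at 1 h, 16 at 3 h, 2 at 24 h and 0 at 0 h, and in roots 1 at 1 h, 3 at 3 h (3 higher and 0 lower), 1 at 6 h, 1 at 12 h, 0 at 24 h, 0 at 0 h, 9 over the ethanol steps, 7 over the citral steps and 2 in the F test. With 0.1 CPM added it differed in roots at 1 h (2) and 6 h (0). The compared groups alone gave 0 in roots at 0 h. Directions turned for PSBO1 (0.14) and PSBR (0.07) in shoots at 3 h under quantile normalization. They also turned in roots at 0 h under limma-trend, where PSBO1 was 0.28, PSBP1 0.32, PSBR 0.16, LHCA4 0.11 and LHCB4.2 0.42, or 0.41 with 0.1 CPM added. The cause was not tested. At shoot 6 h LHCB4.3 (adjusted p = 0.143), LHCA5 (adjusted p = 0.45), LHCA6 (adjusted p = 0.402), PSAH1 (adjusted p = 0.0946) and PSBS (adjusted p = 0.094) lost their calls without quality weights, and also under limma-trend. The planned scaling of the deposited values by 1 common factor was not run as an alternative, because it leaves depth unscaled. Depth limits the root values most, where many members lie under 20 CPM.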
